A study of Mus musculus with 14 samples.

Results

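The genes described here are Prkg1, which encodes cyclic GMP-dependent protein kinase 1, and 8 genes of cyclic nucleotide phosphodiesterases, namely Pde5a, Pde1a, Pde1c, Pde3a, Pde10a, Pde4b, Pde4d and Pde7b. They are 9 of the 21883 protein-coding genes of the assembled mouse chromosomes. They were chosen by name as a pathway group when peak counts of these same lists were already known, and peaks were assigned to a gene if they overlapped its body or the 5 kb flanking it. Because the choice drew on the peaks of both antibodies and both treatments, all counts below are descriptions and no test was made on them.

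The study mapped BMI1, a component of the Polycomb complex PRC1, and H2AK119ub, the ubiquitinated histone H2A that such complexes deposit, by chromatin immunoprecipitation and sequencing (ChIP-seq). The cells were Sca1+CD45- cells of the heart, a fraction depleted of leukocytes, from C57BL/6 mice 6 to 8 weeks old. Damage mice had received 1 intraperitoneal injection of paraquat, a superoxide-generating herbicide, at 20 mg/kg in PBS, and Homeostasis mice had received PBS alone. The groups were Damage BMI1, Damage H2AK119ub, Homeostasis BMI1 and Homeostasis H2AK119ub, with 3 libraries each, and the comparison asks where the protein and the mark lie with and without oxidative damage. The growth protocol, the same for every library, describes culture of the sorted cells with serum, EGF and FGF at 3% oxygen, and the extraction protocol describes fixation in suspension after isolation without naming the culture, so how long cells of either treatment were cultured before fixation is not stated. The labels do not say whether replicates came from separate mice or whether the antibodies shared chromatin. Peak lists hold no expression values, so the labelled cell type was not checked against marker genes. The Damage lists held 19 to 68 peaks and the Homeostasis lists 2000 to 13487, with the shortest and the longest Homeostasis list both from H2AK119ub (replicates 1 and 2). Read depth is unknown, so a count of peaks cannot be scaled for it, and that part of any difference between lists was not tested.

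Cyclic AMP and cyclic GMP are second messengers made by adenylyl and guanylyl cyclases, and guanylyl cyclases respond to nitric oxide and natriuretic peptides. They act through protein kinases A and G, exchange factors and ion channels, and phosphodiesterases end the signal by hydrolysing them. In the heart these enzymes set contractility, pacing and vascular tone, and inhibitors of PDE3 and PDE5 are used as drugs. Polycomb complexes that place H2AK119ub are known in other cells for binding CpG-rich promoters of silent genes, which is why the promoters of these genes are shown first.

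No peak of any list lay in a listed promoter window of these genes. RefSeq promoter windows on GRCm38.p6 (250 bases before to 50 bases after a transcription start) were found for 8 of the 9 genes, all but Pde3a, with 18 windows in all, and 0 of the 18 held a peak. The listed starts leave out the annotated 5′ ends of Pde10a, Pde4b, Pde1a, Pde1c and Pde7b, so no window covered those ends. The share of all listed windows that held a peak was not computed. With only 18 short windows, a count of 0 does not set these genes apart from others. The sequences below are those of the start sites of Prkg1 and Pde4d, the genes with the most peaks, and of Pde5a, which had none. They are printed 5′ to 3′ on the strand of the gene, with the dinucleotide CG in capitals. CG reads the same on both strands.
Prkg1 start 1, chr19:31764984-31765283, minus strand: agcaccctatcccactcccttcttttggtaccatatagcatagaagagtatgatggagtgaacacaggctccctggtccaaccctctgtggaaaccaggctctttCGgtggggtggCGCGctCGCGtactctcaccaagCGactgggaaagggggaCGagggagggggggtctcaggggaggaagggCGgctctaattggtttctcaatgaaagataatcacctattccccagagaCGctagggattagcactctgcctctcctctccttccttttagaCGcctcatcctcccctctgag
Prkg1 start 2, chr19:31664321-31664620, minus strand: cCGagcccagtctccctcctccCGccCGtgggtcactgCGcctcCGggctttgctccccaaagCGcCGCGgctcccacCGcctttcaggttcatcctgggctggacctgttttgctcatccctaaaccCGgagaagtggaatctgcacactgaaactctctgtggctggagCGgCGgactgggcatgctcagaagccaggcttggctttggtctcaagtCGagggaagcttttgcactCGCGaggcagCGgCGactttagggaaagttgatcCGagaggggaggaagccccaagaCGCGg
Pde4d, chr13:108653927-108654226, plus strand: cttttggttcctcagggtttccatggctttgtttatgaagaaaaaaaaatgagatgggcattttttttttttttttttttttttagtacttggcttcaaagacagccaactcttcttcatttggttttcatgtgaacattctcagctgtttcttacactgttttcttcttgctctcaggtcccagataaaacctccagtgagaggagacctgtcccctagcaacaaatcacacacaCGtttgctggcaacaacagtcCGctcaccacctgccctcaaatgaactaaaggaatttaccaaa
Pde5a, chr3:122728908-122729207, plus strand: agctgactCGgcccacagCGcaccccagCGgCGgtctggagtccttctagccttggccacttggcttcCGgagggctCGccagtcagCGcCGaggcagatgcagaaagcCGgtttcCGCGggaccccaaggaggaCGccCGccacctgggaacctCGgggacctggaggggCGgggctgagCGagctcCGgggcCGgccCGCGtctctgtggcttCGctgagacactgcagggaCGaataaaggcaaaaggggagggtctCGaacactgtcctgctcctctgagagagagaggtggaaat

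The listed promoter windows of these genes ranged widely in CpG content. The windows of Prkg1 held 10 and 20 CG dinucleotides, that of Pde4d 2 and that of Pde5a 23. Over the 18 windows the count ran from 1, at a start of Pde4b, to 23, at Pde5a and at the first listed start of Pde10a. Their median was 6, against a median of 7 over 32851 listed promoters, of which 94.6% hold at least 1 CG. The CpG-rich window of Pde5a belonged to a gene with no peak, and the CpG-poor window of Pde4d to the gene with the most. Each is the only window listed for its gene, and any start that is not listed was not examined. The windows of Pde1a, the other gene with no peak, held only 6, 8, 3 and 2. Pde5a is also the shortest of the 9 genes and Pde4d the longest, and a relation between CpG content and peaks was not tested. The Homeostasis site closest to a listed start lay 6.27 kb downstream of the second start of Prkg1. The median distance to a listed start was 255 kb over the 33 sites of genes that have one. None of these 33 sites was within 5 kb of a listed start of its gene. For genes whose annotated 5′ end is not a listed start, these distances do not cover that end. Of 17229 Homeostasis sites of the whole genome, 1534 (8.90%) were within 5 kb of a listed start of any gene. These measures are unlike, since listed starts are sparse along genes this long, and they cannot be compared directly.

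Among the Homeostasis libraries, peaks fell in 7 of the 9 genes with each antibody, and none fell in Pde1a or Pde5a. With BMI1, 5 of the 9 genes had a peak in 2 or more of 3 libraries (Prkg1, Pde4d, Pde3a, Pde10a and Pde1c), against a background of 7.34% of protein-coding genes, and 3 had one in all 3 libraries, against 4.45%. With H2AK119ub, 7 of the 9 had a peak in 2 or more libraries (the same 5, Pde4b and Pde7b), against 9.62%, and 3 in all 3 libraries (Prkg1, Pde4d and Pde1c), against 2.92%. These backgrounds are dominated by short genes. All 9 genes exceed 108.5 kb, the 90th percentile of length among protein-coding genes, with a median length of 461.5 kb against 17.2 kb, so genes of similar length to each member (0.75 times as long or longer, and at most longer by the inverse of that fold) are the closer background. Among these the share with a BMI1 peak in 2 or more libraries was 98.0% at the length of Pde4d, 92.3% at that of Prkg1, 63.0% for Pde1c, 53.0% for Pde10a and 35.7% for Pde3a. Summed over the 9 genes, such shares come to 5.11 genes for BMI1, where 5 were found, and 5.95 for H2AK119ub, where 7 were found, so the BMI1 count was that of genes of their length and the H2AK119ub count was close to it. Without Homeostasis BMI1 replicate 2 the BMI1 count was 3, and without Homeostasis H2AK119ub replicate 2 or replicate 3 the H2AK119ub count was 3.

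**Figure D1:**
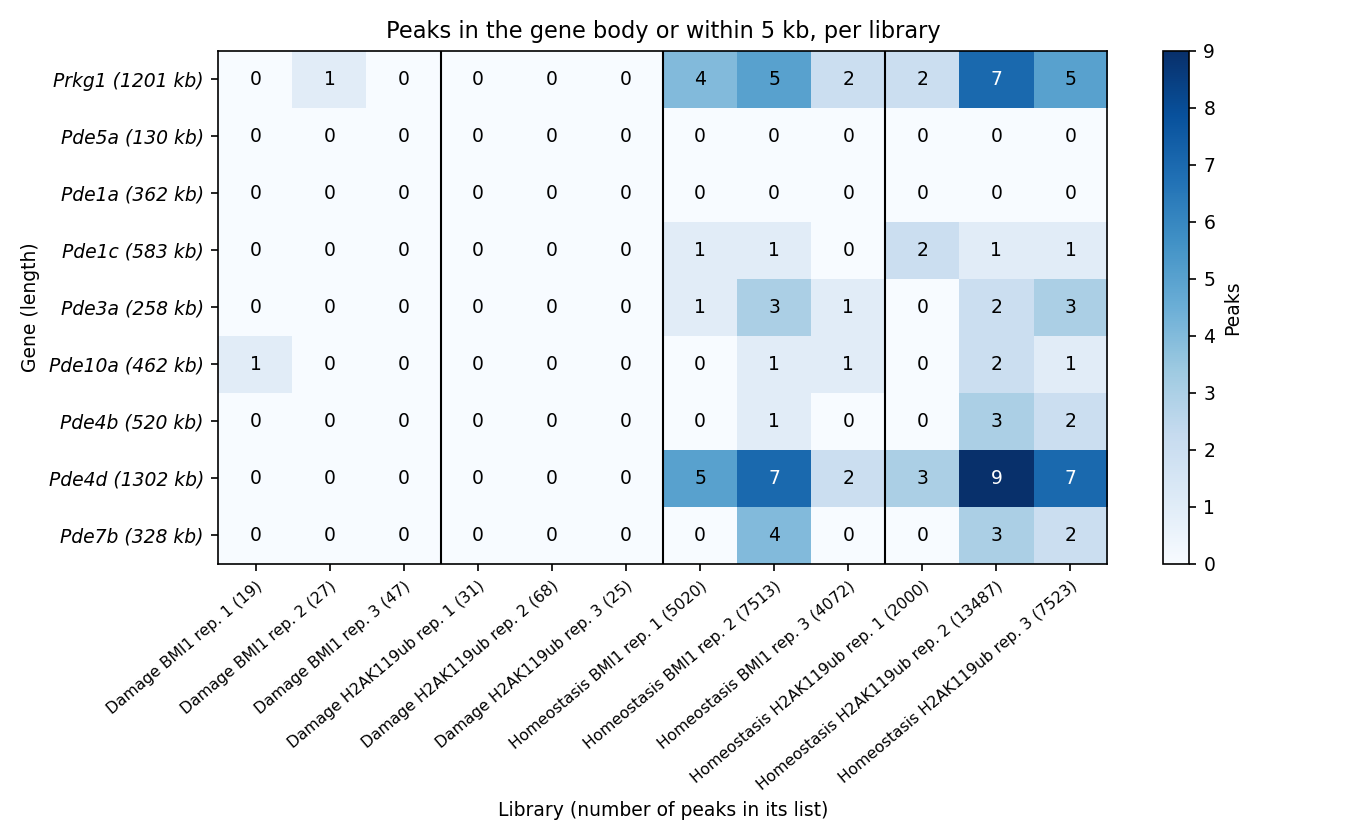
Number of peaks at each gene (rows, with gene length in kb) in each of the 12 libraries (columns, with the number of peaks in the list), Damage libraries on the left. The Damage columns hold 1 peak at Prkg1 and 1 at Pde10a, Prkg1 and Pde4d have peaks in all 6 Homeostasis libraries, and the rows of Pde5a and Pde1a are at 0 throughout.

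Prkg1, the kinase through which nitric oxide and natriuretic peptides relax smooth muscle, is a gene of 1201 kb (chromosome 19, 30564487 to 31765268, minus strand). It had 0, 1 and 0 peaks in the Damage BMI1 libraries, against 4, 5 and 2 in the Homeostasis BMI1 libraries. With H2AK119ub it had 0 peaks in each of the 3 Damage libraries, against 2, 7 and 5 in the Homeostasis libraries. For both antibodies the Damage values all lay below the Homeostasis values, as did the lengths of the lists. The same held at 4.42% of protein-coding genes for BMI1, and at 2.92% for H2AK119ub. Those shares are over genes of all lengths, most of them short, and were not computed at similar length. Such a separation requires a peak in all 3 Homeostasis libraries of the antibody. It was found at 967 of the 973 genes with a BMI1 peak in all 3, and at 638 of the 640 with an H2AK119ub peak in all 3. With Damage lists this short it therefore adds little to the Homeostasis counts. Of 65 genes of similar length, 60 had a BMI1 peak in 2 or more Homeostasis libraries and 63 an H2AK119ub peak. For Prkg1 the mean at homeostasis was 3.67 ± 1.53 BMI1 peaks and 4.67 ± 2.52 H2AK119ub peaks (SD, n = 3 each). The peak density of the chromosome in each list gave an expected 2.42 and 3.38 for a span of this length.

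Those peaks formed 8 Homeostasis sites, a site being overlapping peaks of any list merged. The sites at 30645404 to 30645570 and 31312156 to 31312277 were each held by all 6 Homeostasis libraries, the first near the 3′ end (93.3% of the way along the gene) and the second at 37.7%. Sites at 31053816 to 31053923 and 31409449 to 31409558 were each in 2 BMI1 and 2 H2AK119ub libraries. The remaining 4 were in 1 or 2 libraries, and a pair of them, 1 BMI1 peak and 1 H2AK119ub peak, lay 166 bp apart near the second start. The sites lay up to 258 kb apart.

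Pde5a, which hydrolyses cyclic GMP and is the target of sildenafil, had 0 peaks in all 12 libraries. It is the shortest of the 9 genes at 130.2 kb (chromosome 3, 122729158 to 122859374), and 2.18 peaks were expected over the 6 Homeostasis lists together. Of 1305 protein-coding genes of similar length, 669 (51.3%) also had no Homeostasis peak. Over all protein-coding genes the share was 80.7%. The nearest Homeostasis site was 92.6 kb beyond the gene, in 1 H2AK119ub library.

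Pde1a and Pde1c encode phosphodiesterases that calcium and calmodulin activate and that hydrolyse both messengers. Pde1a (362.1 kb, chromosome 2, 79834453 to 80196522) had 0 peaks in all 12 libraries, where 5.26 were expected over the 6 Homeostasis lists. Of 405 genes of similar length, 63 (15.6%) had no Homeostasis peak either. A site held by 3 BMI1 and 2 H2AK119ub libraries lay 13.1 kb beyond the upper end of Pde1a (80209613 to 80209717), outside the window of 5 kb. With 20 kb on either side the found-to-expected ratio was 1.32 for BMI1 and 0.476 for H2AK119ub, so a count of 0 holds for the gene body and flanks of 5 kb only.

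Pde1c (582.7 kb, chromosome 6, 56069798 to 56652510) had 0 peaks in each of the 6 Damage libraries, against 1, 1 and 0 in the Homeostasis BMI1 libraries and 2, 1 and 1 in the Homeostasis H2AK119ub libraries. The groups overlapped for BMI1 and did not for H2AK119ub. With H2AK119ub, Damage lay below Homeostasis at 2.92% of protein-coding genes of all lengths and in the lengths of the lists. Among the 640 genes with an H2AK119ub peak in all 3 Homeostasis libraries, as in Pde1c, it did so at 638. Of 189 genes of similar length, 142 (75.1%) had an H2AK119ub peak in 2 or more Homeostasis libraries. The peaks of Pde1c formed 2 sites 40.1 kb apart, 1 of them in 1 BMI1 and 3 H2AK119ub libraries (56193573 to 56193689). A site of 2 BMI1 and 2 H2AK119ub libraries lay 15.5 kb beyond the upper end of the gene. Among the 9 genes, only Pde1c had more H2AK119ub peaks in the shortest list, replicate 1, than in replicates 2 and 3. Its H2AK119ub ratio to expectation was 1.56 ± 2.01 and was 0.406 without that library.

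Pde3a, the cyclic AMP phosphodiesterase that cyclic GMP inhibits and the target of milrinone, had more Homeostasis peaks than expected for its length of 257.6 kb (chromosome 6, 141249269 to 141506862). It had 0 peaks in each of the 6 Damage libraries, against 1, 3 and 1 in the Homeostasis BMI1 libraries and 0, 2 and 3 in the Homeostasis H2AK119ub libraries. Over the 6 lists its 10 peaks compare with 4.53 expected, a ratio of 2.21, the highest of the 9 genes. Of 582 genes of similar length, 522 had fewer Homeostasis peaks, 20 as many and 40 more. Sites at 141333045 to 141333155 and 141487007 to 141487125 were each in 2 BMI1 and 2 H2AK119ub libraries. The other 2 of its 4 sites were each in 1 library, so the 10 peaks count few positions, some of them repeatedly. The H2AK119ub ratio was 1.57 ± 1.69, 2.36 without replicate 1 and 0.683 without replicate 3.

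Pde10a, a phosphodiesterase of both messengers best known from striatal neurons (461.5 kb, chromosome 17, 8525187 to 8986648), had 1, 0 and 0 peaks in the Damage BMI1 libraries, against 0, 1 and 1 in the Homeostasis BMI1 libraries. With H2AK119ub it had 0 peaks in each Damage library, against 0, 2 and 1 in the Homeostasis libraries, so the groups overlapped with both antibodies. The Homeostasis peaks lay at 1 site in 2 BMI1 and 2 H2AK119ub libraries (8906829 to 8906952) and at 1 site 16.7 kb away in 1 H2AK119ub library. Over the 6 lists the 5 peaks compare with 6.97 expected.

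Pde4d and Pde4b encode phosphodiesterases specific for cyclic AMP that rolipram inhibits, and PDE4D is known in cardiac muscle as a partner of the ryanodine receptor. Pde4d is the longest of the 9 genes at 1302 kb (chromosome 13, 108654177 to 109955969, plus strand) and held the most peaks. It had 0 peaks in each of the 6 Damage libraries, against 5, 7 and 2 in the Homeostasis BMI1 libraries and 3, 9 and 7 in the Homeostasis H2AK119ub libraries. Damage and Homeostasis libraries did not overlap, as at 4.42% of protein-coding genes of all lengths for BMI1 and 2.92% for H2AK119ub. Among genes with a peak in all 3 Homeostasis libraries, as in Pde4d, the same held at 967 of 973 for BMI1 and 638 of 640 for H2AK119ub. The lists themselves held 19 to 68 peaks after damage against 2000 to 13487 at homeostasis. Of 51 genes of similar length, 50 had a BMI1 peak in 2 or more Homeostasis libraries and all 51 an H2AK119ub peak. For Pde4d the mean at homeostasis was 4.67 ± 2.52 BMI1 peaks, with 2.83 expected, and 6.33 ± 3.06 H2AK119ub peaks, with 3.73 expected.

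Of the 51 genes of a length similar to Pde4d, 43 had fewer Homeostasis peaks and 8 had more. Its 13 Homeostasis sites included 1 in all 6 libraries, 256 kb from the 5′ end (108910423 to 108910542). Sites at 108713800 to 108713955 and 108995518 to 108995649 were each in 5 libraries, and that at 109407956 to 109408081 in 4. A stretch of 373 kb in the 3′ part of the gene separated the last site held by 2 libraries from 2 sites of 1 H2AK119ub library each. The genes whose counts over the 12 lists came closest to those of Pde4d, by the sum of absolute differences, were Asic2, Egfem1 and Inpp4b (all 5), then Gpc6 and Lrrc4c (both 6). All 5 are 609.4 kb or longer and, like Pde4d, had no Damage peak. The Damage lists were part of the measure that picked them. Of the 51 genes of a length similar to Pde4d, 8 (15.7%) had a Damage peak.

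Pde4b (519.9 kb, chromosome 4, 102087332 to 102607275) had 0 peaks in each of the 6 Damage libraries, against 0, 1 and 0 in the Homeostasis BMI1 libraries and 0, 3 and 2 in the Homeostasis H2AK119ub libraries. Of its 4 sites, 3 were each in 1 H2AK119ub library. The other was in 1 BMI1 and 2 H2AK119ub libraries (102248685 to 102248797). The total of 6 peaks compares with 7.12 expected.

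Pde7b, a cyclic AMP phosphodiesterase that rolipram does not inhibit (328.0 kb, chromosome 10, 20397052 to 20725078), had 0 peaks in each of the 6 Damage libraries, against 0, 4 and 0 in the Homeostasis BMI1 libraries and 0, 3 and 2 in the Homeostasis H2AK119ub libraries. All of its BMI1 peaks came from replicate 2, and the BMI1 ratio, 1.43 ± 2.47, was 0 without it. Of its 4 sites, 3 were held by BMI1 replicate 2 together with 1 or 2 H2AK119ub libraries. The 9 peaks compare with 5.12 expected.

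**Figure D2:**
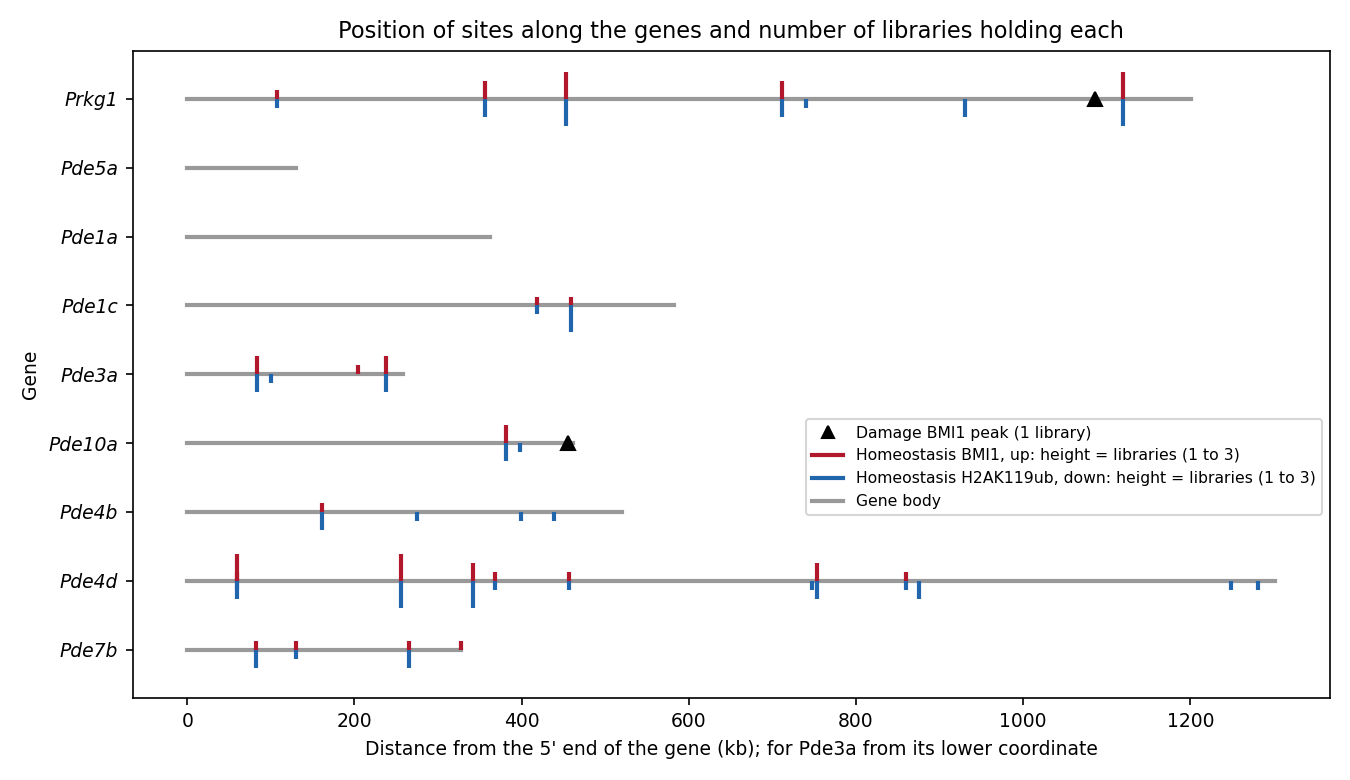
Sites along each gene, with distance from the 5′ end in kb on the horizontal axis (from the lower coordinate for Pde3a). Bars above the line give Homeostasis BMI1 libraries and bars below it Homeostasis H2AK119ub libraries (1 to 3), black triangles mark the 2 Damage BMI1 peaks, and sites under 1 kb apart are drawn over each other. Most tall bars have a counterpart on the other side of the line, and Pde5a and Pde1a are empty.

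Sites of these genes that recurred between libraries mostly carried both BMI1 and H2AK119ub, as recurrent sites over the genome did. The 9 genes held 37 Homeostasis sites, all inside gene bodies (the outermost, in Pde7b, began 0.259 kb within the gene, and the next beyond a window was that beside Pde1a), none on another annotated gene and none on a tRNA or 5S ribosomal RNA gene. Of the 22 sites in 2 or more libraries, 20 held peaks of both antibodies (90.9%, against 86.3% of such sites over the genome), 2 of H2AK119ub alone and 0 of BMI1 alone. Over all 37 sites, 20 (54.1%) held both antibodies, against 43.1% of the 17229 Homeostasis sites of the genome. All 6 libraries were present at 3 sites (8.11%, against 7.21%), and a single library at 15 (40.5%, against 50.0%). In the 12 sites of 4 or more libraries the peak centres spread over 7 to 66 bp, with a median of 19.5 bp, against a median of 16.0 bp for all such sites of the genome.

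Set against the length of the genes, the number of peaks was 1.20 times that expected. Expected numbers are the peaks of a list on the gene's chromosome times the span of the gene with its flanks, divided by a range. That range is the stretch of the chromosome from its first to its last annotated gene or peak. Together the 9 genes span 5.24 Mb, 0.194% of the ranges of all chromosomes, and held 94 Homeostasis peaks where 78.3 were expected. The found-to-expected ratio per library was 1.16, 1.45 and 0.723 for BMI1 (mean 1.11 ± 0.366, n = 3) and 1.72, 1.03 and 1.39 for H2AK119ub (1.38 ± 0.348). The BMI1 libraries lay on both sides of 1, and the H2AK119ub libraries lay above it, the longest list by the least.

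Among the genes the ratio over the 6 lists was 2.21 for Pde3a, 1.76 for Pde7b, 1.68 for Pde4d, 1.44 for Prkg1, 0.843 for Pde4b, 0.717 for Pde10a, 0.598 for Pde1c and 0 for Pde1a and Pde5a. Within each antibody the per-library ratios of neighbours in this order overlapped, except that the BMI1 ratios of Prkg1 (1.09 to 1.96) lay above those of Pde4b (0 to 0.738) and the H2AK119ub ratios of Pde1c (0.308 to 3.88) above those of Pde1a (all 0). In numbers of peaks Pde4d and Prkg1 stood above the other 7 genes, with 33 and 25 over the 6 lists against 0 to 10. A typical gene of their length had a median of 21 and 18.

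**Figure D3:**
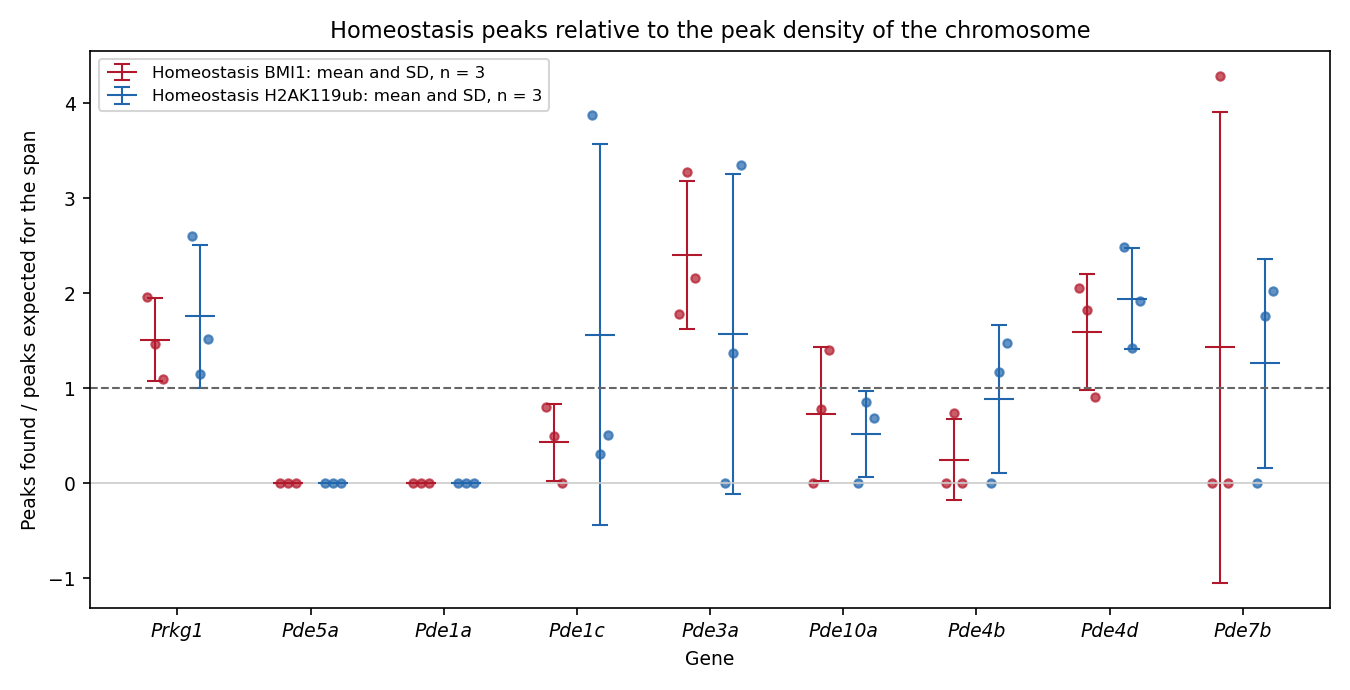
Peaks found over peaks expected for the span of each gene at homeostasis. Points are libraries, horizontal marks and bars the mean and SD over 3 libraries of each antibody, and the dashed line marks a ratio of 1. All libraries of Pde1a and Pde5a lie at 0, and those of Pde7b for BMI1 and Pde1c for H2AK119ub are spread most widely.

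**Figure D4:**
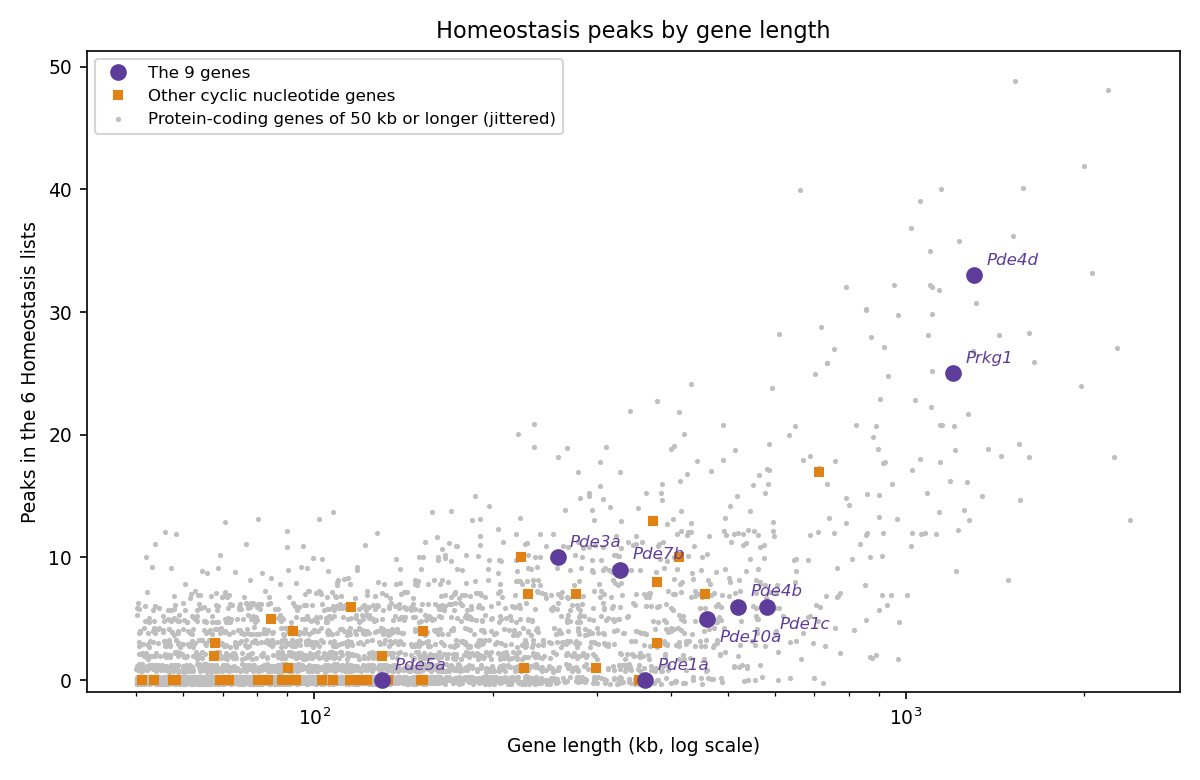
Peaks in the 6 Homeostasis lists (vertical axis) by gene length (kb, log scale) for the 9 genes (purple circles), other cyclic nucleotide genes (orange squares) and protein-coding genes of 50 kb or longer (grey, jittered vertically). Peak number rises with length, and Pde4d and Prkg1, at 33 and 25 peaks, lie within the cloud of genes of their length.

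After paraquat, 2 peaks were listed at these genes, both of BMI1 and each in 1 library. In Prkg1 the peak of Damage BMI1 replicate 2 lay at 30679229 to 30679329, 33.8 kb from the nearest Homeostasis site. In Pde10a the peak of Damage BMI1 replicate 1 lay at 8980654 to 8980754, 50.3 kb from the nearest Homeostasis site and 98.7% of the way along the gene. Neither position was shared with a Homeostasis list or with a second Damage list. A Damage peak was found at 0.283% of protein-coding genes, at 7 of 65 genes of a length similar to Prkg1 (10.8%) and at 6 of 298 similar to Pde10a (2.01%).

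The 9 genes took 2 of 217 Damage peaks, a share of 0.922% (exact 95% binomial interval 0.112 to 3.29%), where 0.365 peaks were expected for their length. They took 94 of 39615 Homeostasis peaks, 0.237% (0.192 to 0.290%). The intervals, which cover counting error only, overlap. They pool libraries and antibodies and treat peaks as independent, although a site is counted once for each library that holds it. The Damage share was 0.505% when Damage BMI1 replicate 1 was left out, and 0.526% when replicate 2 was. No H2AK119ub peak was found at these genes after damage. Counts of 0 among 31, 68 and 25 peaks allow shares of up to 9.68%, 4.41% and 12% (3 peaks of each list), above the shares of 0.200 to 0.350% in the Homeostasis H2AK119ub libraries. A lower share of H2AK119ub peaks at these genes after damage, or a higher one within these limits, was therefore not detectable with lists of this length.

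The rest of the pathway was described from lists by role, with 73 genes matched. Of these, 11 (15.1%) had a BMI1 peak in 2 or more Homeostasis libraries, against 7.34% of protein-coding genes. An H2AK119ub peak in 2 or more was found at 13 (17.8%), against 9.62%. The 73 genes had a median length of 67.9 kb, against 17.2 kb, and shares at similar length were not computed for them. A Damage peak was found at 0 of the 73, against 0.283% of protein-coding genes. The 73 genes held 120 Homeostasis peaks where 129 were expected, a ratio of 0.928. The other 13 phosphodiesterase genes held 8 peaks where 21.7 were expected, and 10 of the 13 had none. The 7 genes of protein kinase A subunits and of the second cyclic GMP-dependent kinase, Prkg2, had 0 peaks where 9.21 were expected. Of protein-coding genes of all lengths, 80.7% had no Homeostasis peak either. A site is counted once for each library that holds it, so few sites make up such totals, and a depletion was not tested.

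In all 3 Homeostasis libraries, 9 of the 73 genes had a BMI1 peak and 6 an H2AK119ub peak, against 4.45% and 2.92% of protein-coding genes. Among 10 adenylyl cyclases, 3 had a peak in every Homeostasis library, namely Adcy1 with 1 in each, Adcy2 with 8 in all and Adcy8 with 10 in all. Each of these 3 held a site shared by all 6 libraries. Gucy1a2, a subunit of the nitric oxide receptor, had 1, 3 and 2 BMI1 peaks and 1, 4 and 2 H2AK119ub peaks, and its site in all 6 libraries lay 1.36 kb from a listed start. Kcnma1, the calcium-activated potassium channel that kinase G opens, had 17 peaks where 10.7 were expected, and Rapgef4, a cyclic AMP-activated exchange factor, had 7 where 4.04 were expected.

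The remaining genes with BMI1 peaks in all 3 libraries were Gucy2c, a guanylyl cyclase of the gut, with 5 peaks in all, Akap6, an anchor of protein kinase A in cardiac muscle, with 7, and Pde4a, which like Pde4b and Pde4d encodes a rolipram-sensitive phosphodiesterase. Pde4a had 1 BMI1 peak in each library and 0, 2 and 1 H2AK119ub peaks, 6 in all where 0.920 were expected. All but 1 of its peaks lay outside the gene body, in the 5 kb beside it.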

How the data were processed

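ChIP-seq peak lists of 12 libraries were used, 3 in each of 4 groups taken from the sample titles. The 2 Input libraries were not analysed here. Bowtie2, HOMER version 4.8 and the build GRCm38 are named in the submitters' processing notes. How peaks were called and whether Input was used is not given in the sources used here. Peaks were listed per library, and the score the authors deposited equals 1 throughout, which gives peaks no rank. Deposited starts count from 0 and were converted. Peak width was 101 bp in 92.6% or more of each list.

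Gene boundaries came from a RefSeq table of GRCm38.p6, without exons, so exons and introns were not separated. Peaks overlapping a gene or its 5 kb flanks by 1 bp were counted. Peaks outside assembled chromosomes (143 of 39832) were left out of gene counts. Expected numbers, sites and backgrounds are defined beside their first use. All 9 genes were named whatever their values, with other pathway genes named when a peak was in all 3 Homeostasis libraries of an antibody or in a Damage list. Members and lists were chosen with earlier results of these data known. Repeats and mappability were not checked, since no genome sequence was used. The procedures were tested on simulated data with Python 3.11.15, numpy 2.4.6, pandas 2.3.3, scipy 1.17.1 and matplotlib 3.10.9.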

Additional observations from a re-analysis of the deposited data

How the results depend on the processing

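No paired analysis was possible because no result comes from a test, so a replicate block has nothing to fit. Alternatives were the gene body alone, flanks of 20 kb, assignment by peak centre, lists without peaks on tRNA and 5S genes, other densities for the expected number, merging within 1 kb, a peak in 3 of 3 libraries and each library left out. Of 94 recomputed summary values, 89 moved by no more than the spread between replicates or, for counts, 1.5 times, or, for the share of Damage peaks, stayed within its exact 95% interval. That share, 0.922%, was 0.505% without Damage BMI1 replicate 1 and 0.526% without replicate 2. Requiring 3 of 3 libraries left 3 genes for BMI1 and 3 for H2AK119ub. Leaving out single libraries gave 3 to 4 genes for BMI1 and 3 to 7 for H2AK119ub, where a gene then needs a peak in both libraries left. Mean peaks per library at the 9 genes ran from 8.5 to 16.5 for Homeostasis BMI1, with the lowest value without replicate 2, and from 14 to 24 for Homeostasis H2AK119ub. Of 162 values for single genes, 160 moved by no more than the spread. The other 2 were the ratios of Pde1a with 20 kb flanks, 1.32 for BMI1 and 0.476 for H2AK119ub, where the site beyond the gene is counted. Leaving out 1 of 3 libraries cannot move a mean by more than the SD of the 3. For means and ratios with a library left out that outcome was therefore fixed, and these tallies do not measure stability. The values themselves are the guide. Without Homeostasis BMI1 replicate 2 the BMI1 ratios of Pde4b and Pde7b were 0, without replicate 1 that of Pde1c was 0.247 and without replicate 3 that of Pde10a was 0.388. For H2AK119ub, the ratio of Pde10a was 0.772 without replicate 1 and that of Pde4b 0.587 without replicate 3. The expected number taken from the density within protein-coding genes gave ratios of 1.27 for BMI1 and 1.60 for H2AK119ub over the 9 genes. Unknown read depth and the 19 to 68 peaks of the Damage lists limit every statement on damage.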
